A study of Mus musculus with 6 samples.

Results

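Nucleotide synthesis and the folate cycle were followed here through 35 genes, taken by symbol from a table of 53735 genes measured in leukemia stem cells, the cells of a leukemia that can regrow it. All 35 symbols were found. They were divided by enzyme role into 9 branches. The study compared leukemia stem cells from the bone marrow of mice (3 libraries) with those from the liver (3 libraries). Both groups came from C57 mice labelled male, 13 days after transplantation with leukemia cells and without treatment. No source used here gives the model of leukemia, the sorting gate or the number of mice behind each library. In the labels the 3 libraries of each tissue are technical replicates and no separate animals are named, so a p-value measures the spread between these libraries only.

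Cells make purines and pyrimidines from small precursors on a sugar phosphate scaffold, phosphoribosyl pyrophosphate, and ribonucleotide reductase turns the resulting ribonucleotides into the deoxynucleotides needed for DNA. Folate carries the single carbon units for the purine ring and for the methyl group of thymidylate. It is loaded with carbon from serine, in the cytosol or in mitochondria. Dividing blood and leukemia cells depend on these routes, and antifolates and nucleoside analogs used against leukemia act on several of the enzymes.

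A level is given below in normalized counts, which are reads per gene after the authors' scaling of each library. Depth was 15.4 to 18.5 M reads in bone marrow and 9.73 to 13.8 M in liver. In spite of the common label of male, Xist, expressed from the inactive X of female cells, stood at 4860.0 and 6229 normalized counts in libraries 1 of bone marrow and liver, at 4.28 and 1.42 in libraries 2, and between these in libraries 3 (2486 and 2425). Y-linked genes ran the other way, with sums of 145 and 0 in libraries 1, 2987 and 2675 in libraries 2, and 1553 and 1634 in libraries 3. Libraries 1 and 2 are thus not repeats of 1 sample as the label has it, and what n = 3 stands for is uncertain. The blood cell marker Ptprc (2839 to 3600 normalized counts over the 6 libraries) and the progenitor markers Kit (419 to 658) and Cd34 (1048 to 2148) were present in every library. Of the 10 stem and progenitor markers 5 had a positive and 5 a negative log2 fold change, and none passed by limma, edgeR or DESeq2. Cd34 was lower in every liver library, at 1063, 1048 and 1143 against 2148, 1179 and 1551 (log2 fold change -0.54, limma adjusted p = 0.24). Hoxa9 was higher in every liver library, at 2841, 2480 and 2654 against 2438, 2210 and 2210 (log2 fold change 0.22, limma adjusted p = 0.21). Of 13 hepatocyte markers, 8 had no read in any library, among them Alb and Ttr, and nearly all of the reads of the others came from Apoa1 (2285 to 5659). Markers of T and B cells summed to 2.41 to 5.93 normalized counts. The markers of 3 other blood lineages were uneven between the groups, and their part in the results below was not tested. All 9 neutrophil markers were detected, and they summed to 153 to 209.8 normalized counts in bone marrow but to 491, 3752 and 2157 in liver libraries 1, 2 and 3, where Mpo and Cxcr2 rose by limma and the other 6 tested did not pass (4 rose by DESeq2). All 8 erythroid markers together ran from 6587 to 7284 in bone marrow and from 4275 to 4829.8 in liver, with none passing by limma or edgeR and 2 lower by DESeq2. The 9 basophil and mast cell markers ran from 26821 to 31533 and from 18366 to 28176, with 1 rising (Prss34) and 1 falling (the tryptase gene Tpsb2, at 0 in liver libraries 1 and 2) by limma, and 1 rising and 6 falling by DESeq2.

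Most genes of nucleotide synthesis stood slightly higher in liver. Of the 35, 34 had a mean of at least 10 normalized counts and were tested, and 28 of these had a positive log2 fold change of liver over bone marrow (82.4%), against 48.4% of all 14298 genes tested. The median log2 fold change was 0.18, a factor of 1.13, against -0.01 over all genes tested. All 3 liver libraries lay above all 3 bone marrow libraries for 18 of the 34 (52.9%; 11.4% of all genes tested), all 3 lay below for Samhd1 alone (10.9% of all genes tested), and the tissues overlapped for 15. Single genes rarely passed the test: Dut and Shmt1 rose (limma adjusted p = 0.022 and 0.033), 0 fell and 32 did not pass. That is 5.88% of the tested members called higher, against 0.42% of all genes tested called higher, 0.594% called lower and 1.01% in either direction. At an unadjusted p under 0.05 the counts were 15 higher (7.65% of all genes) and 1 lower (8.04%). With edgeR, Dut and Shmt1 again rose and 0 fell (0.371%, 0.574% and 0.944% of all genes called higher, lower and in either direction). DESeq2, which called more genes in general, had 4 rise and 0 fall (1.92%, 2.43% and 4.35%), with Rrm1 and Rrm2 added. In such bulk libraries, more cells with a transcript and more of that transcript per cell cannot be told apart.

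**Figure D1:**
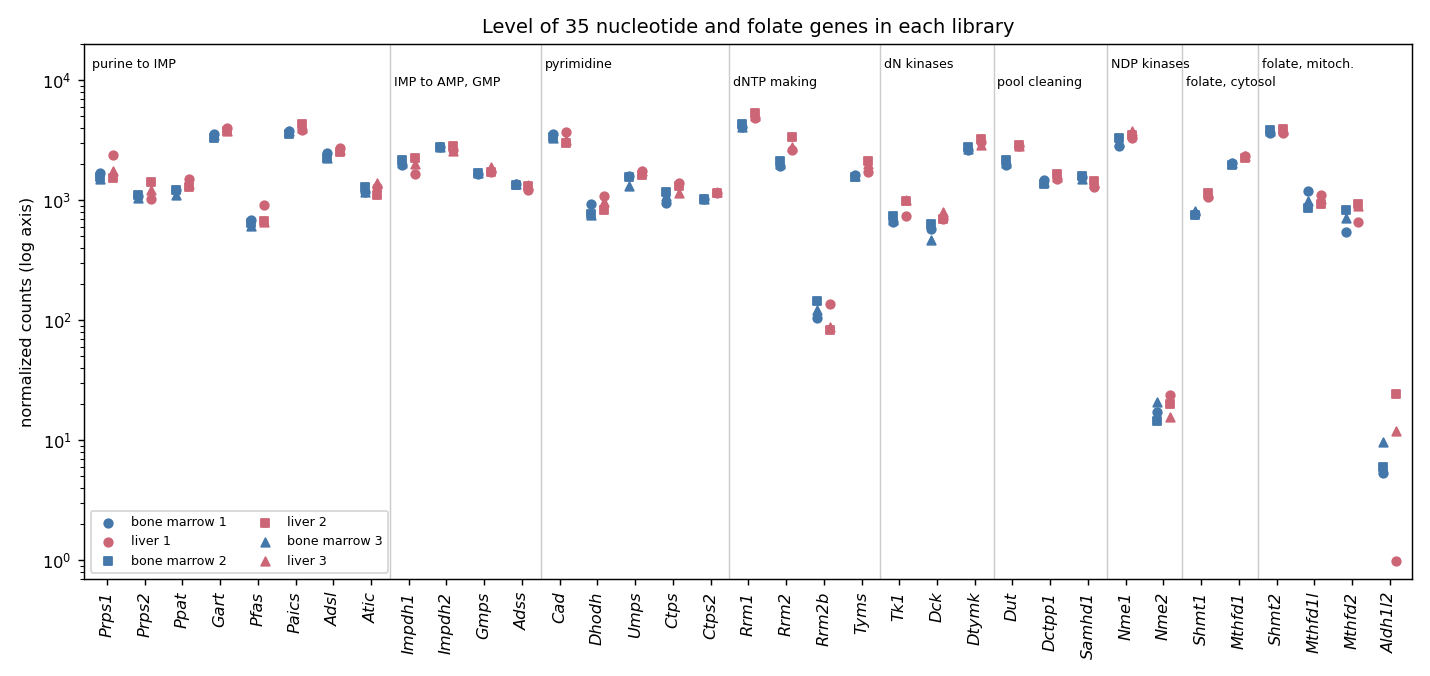
Level of the 35 genes in each of the 6 libraries, in normalized counts on a log axis, grouped by branch; blue symbols are bone marrow, red symbols liver, and the symbol shape gives the library number. Rrm1, Paics, Gart and Shmt2 lie at the top, while Rrm2b, Nme2 and Aldh1l2 lie far lower.

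The tissues differed by much less than the genes among themselves. Per kilobase of transcript, a scale on which genes can be compared with each other, Dtymk was the highest of the 35 (2686 normalized counts per kilobase in bone marrow and 3059 in liver), followed by Dctpp1 (2113 and 2319) and Shmt2 (1634 and 1657). The order depends on the transcript taken for each gene, of 1003 bases for Dtymk and 676 for Dctpp1 but 3181 for Nme1. The lowest tested gene was Nme2 (17.3 and 19.5), and Rrm2b (27.2 and 22.4) was the second lowest. Aldh1l2, the mitochondrial enzyme that oxidizes formyl folate to CO2, was the 1 gene left untested. It held 5.39, 5.99 and 9.67 normalized counts in bone marrow and from 0.988 (a single read) to 24.2 in liver.

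The branch that makes deoxynucleotides had the largest summed change. Rrm1 and Rrm2 encode the large and the small subunit of ribonucleotide reductase, and Tyms encodes thymidylate synthase, which methylates dUMP to dTMP with a folate carbon. The stretches before their start sites are shown because these genes stood higher in liver side by side, together with that of Dut, the dUTPase gene. They come from RefSeq windows on GRCm38.p6, which cover 31 of the 35 genes, and leave out exon bases. Capitals mark a CCAAT box or, in Tyms, an E-box. The stretch of Rrm1 is chr7:102441545-102441694 on the plus strand, that of Rrm2 chr12:24708104-24708240 (plus), that of Tyms chr5:30073626-30073775 (minus) and that of Dut chr2:125247402-125247481 (plus). The stretch of Dut lies before its RefSeq start site but inside the span of the longer GENCODE gene model given below.
Rrm1: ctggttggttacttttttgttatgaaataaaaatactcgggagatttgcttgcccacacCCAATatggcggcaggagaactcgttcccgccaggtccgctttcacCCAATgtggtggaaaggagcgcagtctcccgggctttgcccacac
Rrm2: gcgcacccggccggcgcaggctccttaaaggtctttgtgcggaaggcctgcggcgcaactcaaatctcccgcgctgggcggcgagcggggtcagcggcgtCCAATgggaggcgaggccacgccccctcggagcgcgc
Tyms: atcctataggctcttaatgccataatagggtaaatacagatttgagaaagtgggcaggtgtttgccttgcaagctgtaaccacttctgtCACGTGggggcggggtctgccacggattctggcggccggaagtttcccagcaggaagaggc
Dut: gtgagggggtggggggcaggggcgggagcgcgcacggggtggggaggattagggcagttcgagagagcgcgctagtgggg

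Both strands of each window, from 250 bases before to 50 bases after the start site, were searched for 5 motifs. Members are counted by gene and the background by window, and 5 of the 31 genes have several windows. The letters CCAAT were found in 13 of the 31 genes, in 37.4% of all 32851 windows and in 38.0% of the windows of tested genes. The E-box CACGTG was found in 6 genes, in 7.15% of all windows and in 10.1% of those of tested genes. An E2F site (TTTCCCGC, TTTCGCGC, TTTGCCGC or TTTGGCGC) was found in Ppat and Prps2, in 2.26% of all windows and in 3.88% of those of tested genes. An NRF1 site (GCGCA followed by its reverse complement) occurred in Ctps and Shmt2, in 0.971% of all windows and in 2.08% of those of tested genes. An ATF4 core site (TGATGNAA) occurred in Prps1, with shares of 3.97% and 2.23%. The motifs do not overlap each other in the printed stretches, and a match describes the letters only.

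Rrm2, whose subunit is made in S phase, stood at 1933, 2111 and 2013 normalized counts in bone marrow libraries 1, 2 and 3 and at 2596, 3346 and 2785 in liver libraries 1, 2 and 3. Every liver library was above every bone marrow library, and liver library 2 was the highest of the 6. The log2 fold change was 0.52 ± 0.10 (SE, limma adjusted p = 0.065), short of the threshold of 0.05. Rrm1 stood at 4073, 4341 and 4091 in bone marrow and 4853, 5363 and 5003 in liver, again without overlap, with a log2 fold change of 0.28 ± 0.06 (SE, limma adjusted p = 0.074). Without liver library 1 both passed (limma adjusted p = 0.021 for Rrm2 and 0.037 for Rrm1). That fit called 427 of 14317 genes tested, against 145 of 14298 with all 6 libraries. Neither gene passed with any other single library left out.

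Tyms stood at 1614, 1574 and 1585 normalized counts in bone marrow and at 1713, 2132 and 2007 in liver. The bone marrow values lay within a narrow band and liver library 1 only just above it, which gave a log2 fold change of 0.29 ± 0.09 (SE, limma adjusted p = 0.18). Without liver library 1 the log2 fold change of Tyms was 0.38 and passed (limma adjusted p = 0.031). Tyms did not pass with any other single library left out. Rrm2b, the small subunit induced by p53 that serves DNA repair and mitochondrial DNA, went the other way without passing. Its levels were 105, 145 and 122 normalized counts in bone marrow against 136, 82.4 and 87.9 in liver, so that the tissues overlapped (log2 fold change -0.30 ± 0.24, limma adjusted p = 0.62). The 4 genes summed to 7902 ± 236 normalized counts in bone marrow against 10035 ± 823 in liver (SD, n = 3 each), 1.27 times as much.

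The enzymes that keep the deoxynucleotide pool clean differed in direction. Dut encodes dUTPase, which destroys dUTP before a polymerase can use it and supplies dUMP to thymidylate synthase. Its level was 1964, 2142 and 2023 normalized counts in bone marrow against 2811, 2861 and 2814 in liver. The liver libraries lay close together and all of them far above bone marrow, with a log2 fold change of 0.47 ± 0.06 (SE, limma adjusted p = 0.022), a 1.39-fold rise. The call was lost without bone marrow library 1, 2 or 3 (limma adjusted p = 0.10, 0.061 and 0.18) and without liver library 3 (0.15), and kept without liver library 1 or 2. The log2 fold change was 0.44 to 0.50 in all of these. The gene occupies positions 125247190 to 125258608 of chromosome 2, plus strand, of GRCm38.

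Samhd1 encodes the dNTP hydrolase that lowers deoxynucleotide pools and clears the active form of cytarabine. It was the 1 gene of the 35 with all liver libraries below all bone marrow libraries, at 1558, 1594 and 1511 normalized counts in bone marrow against 1280.4, 1455 and 1403 in liver. The log2 fold change was -0.17 ± 0.07 (SE) and did not pass (limma adjusted p = 0.29). Dctpp1, a pyrophosphatase that removes modified dCTP, stood at 1487, 1373 and 1424 in bone marrow and 1502, 1643 and 1558 in liver (log2 fold change 0.13, limma adjusted p = 0.39). Its groups did not overlap, but the lowest liver value exceeded the highest bone marrow value by only 14.9 normalized counts.

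The 3 members that encode kinases of deoxynucleosides or dTMP stood higher in every liver library, and none of them passed. This does not hold for all genes of such kinases. Outside the 35, Tk2 was lower in every liver library (log2 fold change -0.44, limma adjusted p = 0.14). Dguok overlapped between tissues (-0.04, limma adjusted p = 0.90). Tk1, cytosolic thymidine kinase, had 655, 732 and 679.6 normalized counts in bone marrow against 745, 991 and 997 in liver, so that liver library 1 lay near the bone marrow values (log2 fold change 0.39 ± 0.13, limma adjusted p = 0.20). Without liver library 1 it was 0.53 and passed (limma adjusted p = 0.029). Tk1 did not pass with any other single library left out. Dck, deoxycytidine kinase, which activates cytarabine and other nucleoside drugs, had 576, 631 and 468 in bone marrow against 698, 699 and 799.6 in liver (0.40 ± 0.13, limma adjusted p = 0.20). Dtymk, which turns dTMP into dTDP for both the salvage and the synthesis route, had 2624, 2769 and 2688 against 3061, 3263 and 2882 (0.19 ± 0.06, limma adjusted p = 0.21). Rrm2, Rrm1 and Tyms were highest in liver library 2, the library with the highest neutrophil marker sum, and Tk1 in library 3. All 4 had their lowest liver value in library 1, the library with the lowest sum, but Dtymk had its own in library 3. Liver library 2 also had the lowest depth and Xist level of the liver libraries, and library 1 the highest. In bone marrow too, Rrm2, Rrm1 and Tk1 were lowest in library 1 and highest in library 2, but Tyms was highest in library 1. The part of each of these properties was not tested. These genes were singled out after their values were seen. Over all 34 tested genes the highest liver value was in library 1 for 12, in library 2 for 14 and in library 3 for 8.

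**Figure D2:**
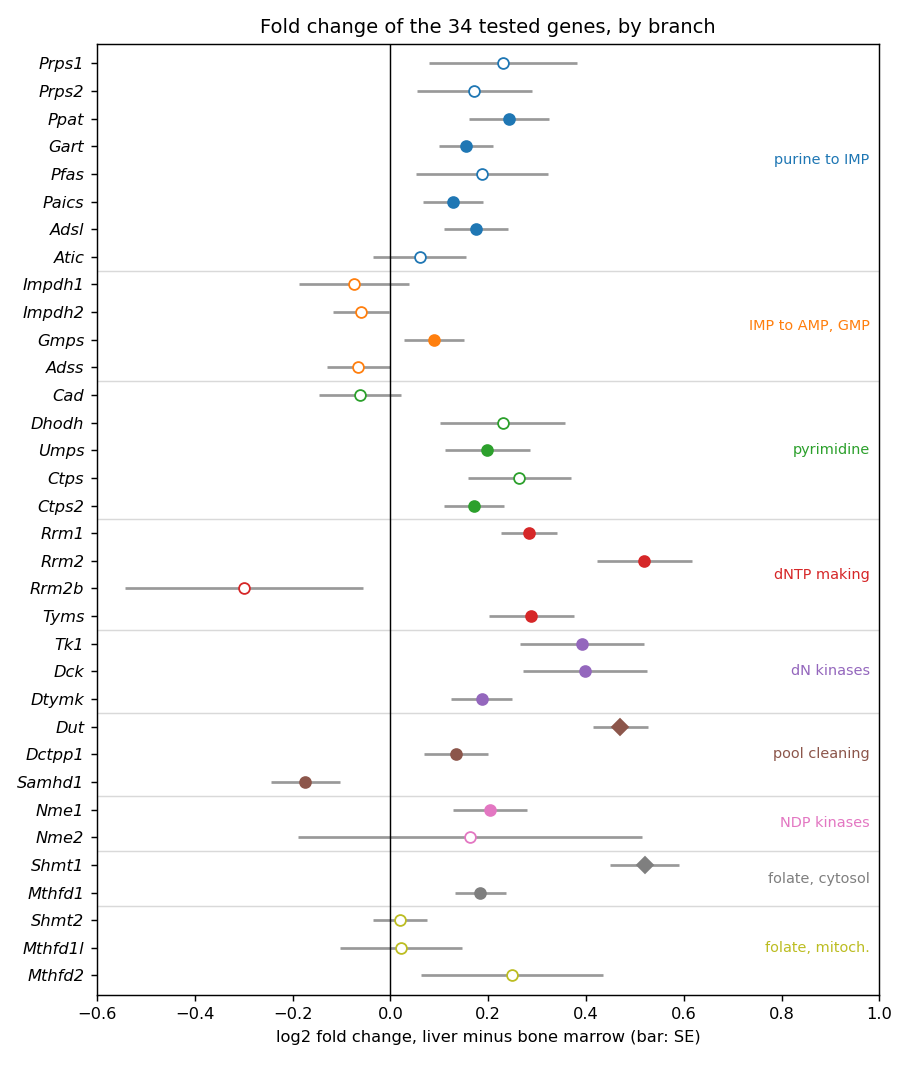
Log2 fold change of liver over bone marrow for the 34 tested genes, with its standard error, coloured by branch; diamonds mark Dut and Shmt1, which passed the test, and filled symbols mark genes whose tissues did not overlap. Shmt1, Rrm2 and Dut lie farthest to the right (0.52, 0.52 and 0.47), and Rrm2b and Samhd1 farthest to the left.

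The folate genes are described by compartment. Shmt1 and Shmt2 encode the cytosolic and the mitochondrial serine hydroxymethyltransferase, which take the carbon from serine. Their stretches before the RefSeq start site are shown because the 2 genes carry out the same reaction and 1 of them passed the test. That of Shmt1 is chr11:60811266-60811415 and that of Shmt2 chr10:127522445-127522594, both on the minus strand of GRCm38.p6. The stretch of Shmt1 lies inside the span of its longer GENCODE gene model, given below, outside annotated exons. Capitals mark a CCAAT box read on the opposite strand in Shmt1 and the NRF1 site in Shmt2.
Shmt1: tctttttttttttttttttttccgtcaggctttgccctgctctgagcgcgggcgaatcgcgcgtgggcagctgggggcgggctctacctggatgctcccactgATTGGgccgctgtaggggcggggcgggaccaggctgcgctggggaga
Shmt2: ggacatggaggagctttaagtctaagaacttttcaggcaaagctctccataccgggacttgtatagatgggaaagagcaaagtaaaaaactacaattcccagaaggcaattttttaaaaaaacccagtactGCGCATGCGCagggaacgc

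Shmt1 stood at 769, 759 and 814 normalized counts in bone marrow and at 1070.0, 1153 and 1136 in liver. The 2 sets are widely separated compared with their spread, with 780.5 ± 29.6 in bone marrow and 1119 ± 43.7 in liver (SD, n = 3 each). The log2 fold change was 0.52 ± 0.07 (SE, limma adjusted p = 0.033), a 1.43-fold rise. The call was kept without liver library 1 and lost without each of the other 5 libraries (limma adjusted p from 0.064 to 0.19), with log2 fold changes of 0.50 to 0.55 over the 6 fits. Without both libraries numbered 3, neither Shmt1 nor Dut passed (limma adjusted p = 0.87 each), at log2 fold changes of 0.54 and 0.47. The gene occupies positions 60788104 to 60811718 of chromosome 11, minus strand, of GRCm38. It shares 184 exon bases, 4.74% of its own, with Smcr8 on the other strand, which held 273 to 315 normalized counts.

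Shmt2 stood at 3614, 3834 and 3776 normalized counts in bone marrow against 3611, 3930.1 and 3835 in liver. The tissues overlapped throughout (log2 fold change 0.02 ± 0.06, limma adjusted p = 0.91). Within each library the log2 ratio of Shmt1 to Shmt2 was -2.23, -2.34 and -2.21 in bone marrow and -1.75, -1.77 and -1.76 in liver, a difference of 0.50 ± 0.04 (SE). The 3 liver ratios were nearly identical and all above bone marrow. This was 1 of 10 such ratios compared, all chosen after seeing the data. Shmt2 hardly differed between tissues, so the separation of the ratio follows from the values of Shmt1. An exact two-sided permutation test of 3 against 3 libraries gave p = 0.10, the smallest it can give (0.25 adjusted over the 10 ratios).

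None of the other folate genes passed. Mthfd1, the cytosolic enzyme with 3 activities that hands carbon to purine and thymidylate synthesis, had 2052, 1981 and 2036 normalized counts in bone marrow against 2328, 2237 and 2331 in liver, with no overlap (log2 fold change 0.18 ± 0.05, limma adjusted p = 0.16). Mthfd1l, which releases formate from mitochondria, overlapped between tissues at 1182, 861 and 985 against 1099, 932 and 1025 (0.02 ± 0.13, limma adjusted p = 0.95). Mthfd2, the mitochondrial dehydrogenase that is high in many tumors, had 549, 832 and 708 against 655, 934 and 886 (0.25 ± 0.19, limma adjusted p = 0.59). The 2 cytosolic genes summed to 2803 ± 56.8 normalized counts in bone marrow against 3418 ± 42.3 in liver, the 4 mitochondrial genes to 5454 ± 94.0 and 5648 ± 247 (SD, n = 3 each). The log2 ratio of Mthfd1 to Mthfd1l differed by 0.16 ± 0.13 (SE, exact permutation p = 0.30, 0.60 adjusted over the 10 ratios), so this pair did not separate the tissues.

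**Figure D3:**
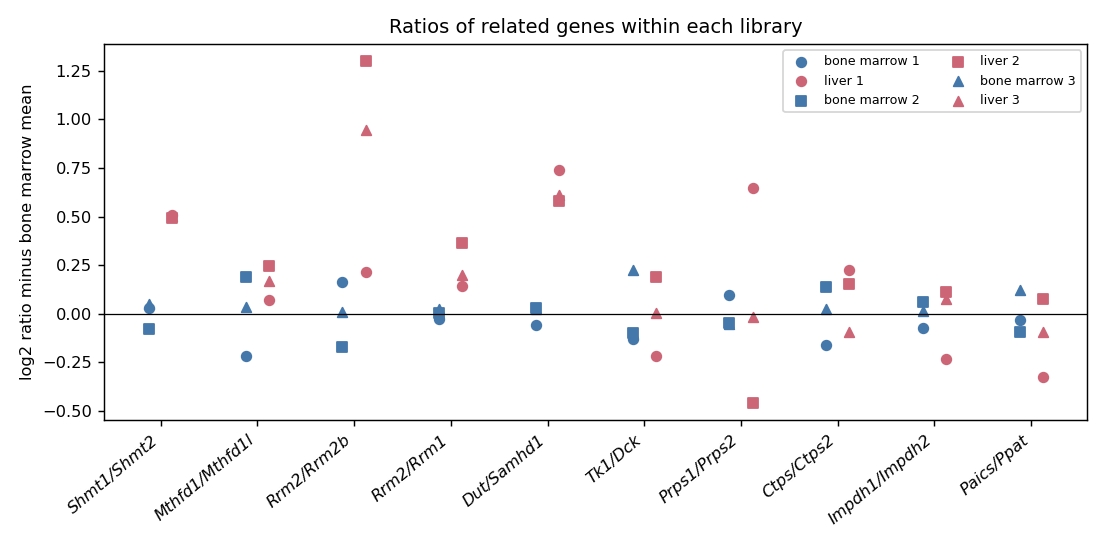
Log2 ratio of related genes within each library, minus the bone marrow mean of that ratio; blue symbols are bone marrow, red symbols liver, and shapes give the library number. Liver lies above bone marrow in all 3 libraries for Shmt1/Shmt2, Rrm2/Rrm2b, Rrm2/Rrm1 and Dut/Samhd1 and overlaps it for the other 6 ratios.

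Of the other ratios, that of Dut to Samhd1 was higher in liver by 0.64 ± 0.06 (SE) on the log2 scale. That of Rrm2 to Rrm1 was higher by 0.24 ± 0.07 and that of Rrm2 to Rrm2b by 0.82 ± 0.33 (SE). The exact permutation p was 0.10 each, the smallest possible (0.25 adjusted over the 10 ratios). The ratios were chosen after seeing the data. Dut had the smallest limma p and Samhd1 alone was lower in every liver library, so the separation of their ratio follows from those values. For Rrm2 to Rrm2b the log2 ratio was 4.24, 5.33 and 4.97 in liver, with library 1 only just above the highest bone marrow value of 4.19. The 2 CTP synthases, the 2 IMP dehydrogenases, the 2 phosphoribosyl pyrophosphate synthetases, Tk1 with Dck, and Paics with Ppat had ratios that overlapped between tissues (exact permutation p from 0.50 to 1.0).

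All 8 genes of the route to IMP, the first complete purine, had positive fold changes, and none passed. Their log2 fold changes ran from 0.06 (Atic) to 0.24 (Ppat) with a median of 0.17, and they summed to 15171 ± 391 normalized counts in bone marrow against 17021 ± 559 in liver (SD, n = 3 each). Ppat, the amidotransferase of the committed step, stood at 1207, 1205 and 1099 normalized counts in bone marrow against 1507, 1293 and 1357 in liver, without overlap (log2 fold change 0.24 ± 0.08, limma adjusted p = 0.22). Gart, which carries 3 steps of the route including a folate-dependent one, stood at 3559.9, 3303 and 3504 against 4008, 3742 and 3783 (0.15 ± 0.06, limma adjusted p = 0.25).

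Paics, whose enzyme adds CO2 and aspartate, had 3749, 3577 and 3799 normalized counts in bone marrow against 3813, 4317 and 4031 in liver (log2 fold change 0.13, limma adjusted p = 0.38). Ppat and Paics lie head to head on chromosome 5, and their annotated exons share 272 bases on opposite strands, where reads of an unstranded library cannot be told apart. Adsl, adenylosuccinate lyase, had 2489, 2261 and 2238 against 2741, 2522 and 2618 (0.17, limma adjusted p = 0.27). These 4 genes did not overlap between tissues, and the other 4 did. Among the latter 4 were Pfas (612 to 688 in bone marrow, 659.9 to 906 in liver) and Atic (1163 to 1289, 1113 to 1379), the gene of the last steps.

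The 2 phosphoribosyl pyrophosphate synthetases, X-linked like Ctps2, spread widely among the liver libraries, while Ctps2 did not (1139 to 1173). Prps1 had 1689.7, 1563 and 1492 normalized counts in bone marrow against 2366, 1528 and 1759 in liver, and Prps2 had 1074, 1098 and 1049.9 against 1027, 1427 and 1208. Liver library 1, the library with the highest Xist level, was the highest for Prps1 and the lowest for Prps2. Neither passed (limma adjusted p = 0.52 and 0.55). The part of sex-linked expression in these values was not tested.

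The 4 genes from IMP onward had fold changes near 0, and none passed by limma, edgeR or DESeq2 or had an unadjusted p under 0.05. Impdh2, the main IMP dehydrogenase of dividing cells, which opens the way to GMP, had 2777, 2785 and 2753 normalized counts in bone marrow against 2615, 2813 and 2554 in liver (log2 fold change -0.06 ± 0.06, limma adjusted p = 0.67). The other isoform gene, Impdh1, had a log2 fold change of -0.07 ± 0.11 and Adss, which leads to AMP, one of -0.07 ± 0.06. Gmps, GMP synthetase, was the exception in sign, at 1645, 1684 and 1674 against 1732, 1709.9 and 1886, without overlap (0.09 ± 0.06, limma adjusted p = 0.55). The 4 genes summed to 7847 ± 115 normalized counts in bone marrow against 7696 ± 441 in liver, 0.981 times as much.

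None of the 5 genes of pyrimidine synthesis passed by limma, edgeR or DESeq2, and 2 had an unadjusted p under 0.05. Cad, the enzyme of the first 3 steps, had 3567, 3353 and 3316 normalized counts in bone marrow against 3692, 3005 and 3144 in liver, which overlap (log2 fold change -0.06 ± 0.08, limma adjusted p = 0.78). The 4 later genes had positive fold changes. Umps, which makes UMP, had 1587, 1552 and 1318 against 1753, 1609 and 1740.0 (0.20 ± 0.09, limma adjusted p = 0.33), and Dhodh, the mitochondrial enzyme before it, ranged from 749.5 to 934 against 829 to 1087 (0.23 ± 0.13, limma adjusted p = 0.45).

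Both CTP synthase genes had positive fold changes as well. Ctps had 952, 1167 and 1076 normalized counts in bone marrow against 1378, 1319 and 1138 in liver, with liver library 3 inside the bone marrow range (log2 fold change 0.26 ± 0.11, limma adjusted p = 0.29). Ctps2 had 1026, 1024 and 1021 against 1139, 1146 and 1173. Its 3 bone marrow values were almost equal, and counting error alone exceeds their SD of 2.68 (0.17 ± 0.06, limma adjusted p = 0.24).

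Nme1, a nucleoside diphosphate kinase that makes triphosphates from diphosphates, had 2833, 3281 and 3028 normalized counts in bone marrow against 3296, 3465 and 3764 in liver. The liver libraries lay above bone marrow by a gap of 14.6 normalized counts (log2 fold change 0.20 ± 0.08, limma adjusted p = 0.26). Its neighbour Nme2 held 14.6 to 20.8 normalized counts in bone marrow against 15.7 to 23.7 in liver. Of the exon bases of Nme2, 48.9% are shared on the same strand with the gene model Gm20390, which also shares bases with Nme1. The symbol Gm20390 is not among the genes measured here. The value of Nme2 is therefore uncertain, and that of Nme1 may be too, since reads on bases shared by gene models can be split or dropped in counting.

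**Figure D4:**
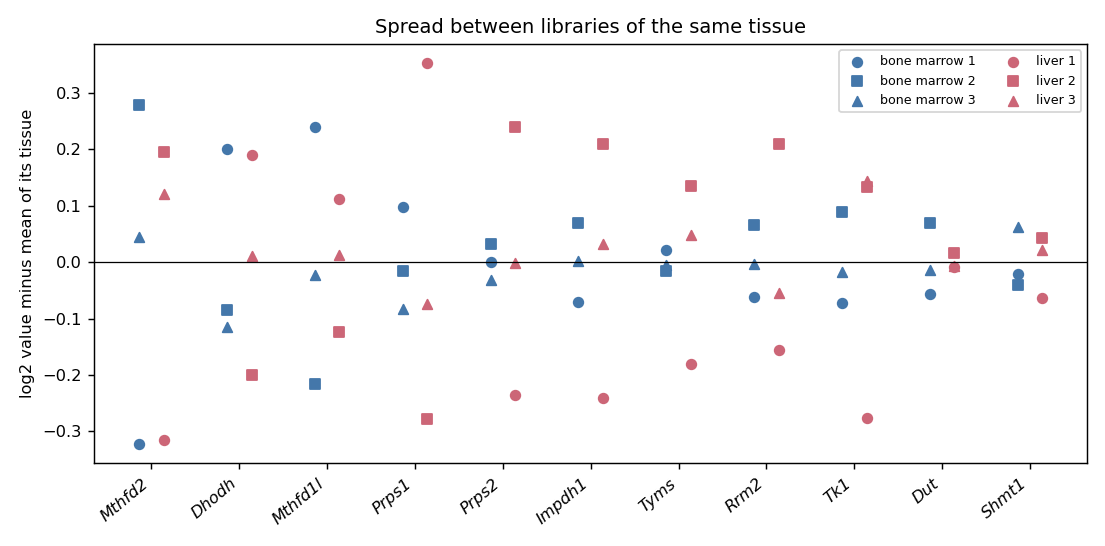
Deviation of each library from the mean of its own tissue, on the log2 scale, for 11 of the genes; blue symbols are bone marrow, red symbols liver. Mthfd2 is lowest and Dhodh and Mthfd1l are highest in library 1 of both tissues, while Dut and Shmt1 stay within 0.07 of the mean.

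Libraries of 1 tissue differed from each other by more than the tissues did for several genes. Mthfd2 was 0.32 below its tissue mean on the log2 scale in library 1 of both tissues, and 0.28 and 0.20 above it in library 2 of bone marrow and liver. Dhodh was 0.20 and 0.19 above the mean in library 1 of bone marrow and liver, and Mthfd1l 0.24 and 0.11 above. Mthfd2 thus ran against Dhodh and Mthfd1l in both tissues, and its tissue difference of 0.25 was smaller than the gap between libraries 1 and 2. Within each number Mthfd2 was higher in liver. For Dut the largest deviation was 0.07 and for Shmt1 0.06.

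Other genes of the same pathways were described from lists that hold none of the 35. Among 12 tested genes of the remaining folate cycle, folate uptake and storage, 0 passed (1 at an unadjusted p under 0.05, 0 by edgeR and 1 by DESeq2), 4 had positive fold changes and the median was -0.06. Of 19 tested genes for salvage of bases and nucleosides 0 passed by limma, edgeR or DESeq2 (1 at an unadjusted p under 0.05), with a median of 0.01. The medians were 0.11 over 9 genes of serine and glycine supply, 0.01 over 8 of the methionine cycle, 0.06 over 11 of other nucleotide kinases and 0.08 over 19 of nucleotide breakdown, with 0 genes passing in each by limma or edgeR. At an unadjusted p under 0.05 these lists held 1, 0, 0 and 5 genes, and by DESeq2 0, 0, 0 and 2.

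The replication genes are described beside the nucleotide genes, without a test between the lists. Every one of 20 genes of the replication fork and origins had a positive fold change, the median was 0.25, and for 14 of them the tissues did not overlap. Cdc45, Cdt1 and Mcm5 rose (limma adjusted p = 0.040 each) and 17 did not pass, and DESeq2 had 9 rise. The proliferation marker Mki67 stood at 3907, 4003 and 4059 normalized counts in bone marrow against 4387, 4624 and 4632 in liver, and the polymerase clamp gene Pcna at 2029, 2111 and 2065 against 2293, 2416 and 2543 (limma adjusted p = 0.13 and 0.14). The log2 fold change of Dut, 0.47, thus lay within the range of the replication genes, 0.00 to 0.55. Of 13 MYC and nucleolar genes Hspe1 rose and 12 did not pass (median 0.07; 2 rose by DESeq2), and Myc itself had 4891 ± 523 normalized counts in bone marrow against 4788 ± 654 in liver (SD, n = 3 each). Of 11 ATF4 target list genes Atf4 rose, from 2794 ± 77.3 to 3511 ± 103 (SD, n = 3 each), 10 did not pass and the median was -0.18.

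**Figure D5:**
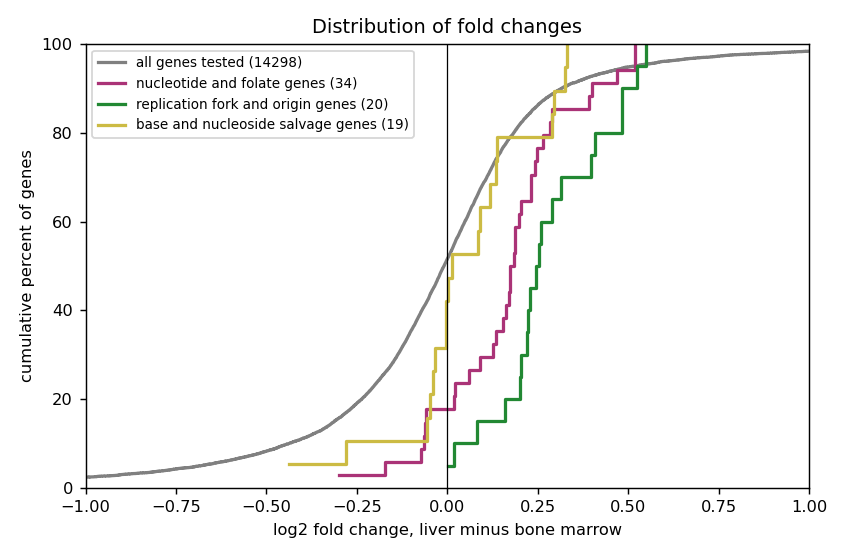
Cumulative percent of genes against the log2 fold change of liver over bone marrow, for all 14298 genes tested, the 34 nucleotide and folate genes, 20 replication genes and 19 salvage genes; the axis ends at -1 and 1. The nucleotide and folate curve, with a median of 0.18, lies between those of all genes (-0.01) and of replication genes (0.25), and the salvage curve (0.01) crosses that of all genes.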

How the data were processed

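RNA was sequenced from 6 libraries of mouse leukemia stem cells, 3 of bone marrow and 3 of liver, made by low-input cDNA synthesis and tagmentation, which do not mark the strand, per the labels' protocols. In the submitters' processing notes stand STAR 2.6.0c, Trimmomatic 0.36, bcl2fastq 2.19.0, R 3.4.1 and DESeq2 1.16.1. No source used here names the genome build, annotation or read counter. The deposited signal is a count of reads per gene, scaled by the authors with a size factor for each library, as its name and the submitters' processing notes say. All values (100%) were whole multiples of each library's smallest value within 0.01, and the reads recovered in this way entered the count tests. No 2 libraries of a tissue agreed within sampling noise (chi-square per degree of freedom 6.50 to 25.9), and all were kept.

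The main test used limma 3.58.1 (R 4.3.3) on log2(normalized count + 1) of the deposited values. Tissue was its single term and the prior variance followed a trend. Tests were two-sided, with p-values adjusted by Benjamini-Hochberg over the 14298 genes with a mean of at least 10. The fold changes of low genes are understated on this scale. An adjusted p under 0.05 was called. The fit was tested on simulated data. Numbers shared by libraries of both tissues were not taken as pairs in this test, although Xist and Y-linked levels matched by number.

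The members and lists were chosen with earlier results of these data known. All 35 members are accounted for. Values of every library are given for members that passed, did not overlap between tissues, or led their branch in level per length or in fold change, and for some others. Other genes are named where they passed, besides Pcna, Mki67, Myc, cell type markers, Smcr8, Dguok and Tk2, and Nt5e and Entpd1 in the closing section. A ranking of genes by likeness to Tyms and Rrm2 is not reported, because 6 libraries in 2 tissues cannot rank them. The 10 ratios were chosen after seeing the data. Exon overlaps, positions and transcript lengths (the longest principal coding transcript) come from GENCODE M21 (GRCm38; all 35 matched by symbol), promoter windows from RefSeq (GRCm38.p6). Alternatives were TMM factors, quantile normalization, other pseudocounts and filters, robust moderation, edgeR 4.0.16, DESeq2 1.42.0, a replicate term and left-out libraries. Permutation tests used SciPy 1.17.1 and figures matplotlib 3.10.9.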

Additional observations from a re-analysis of the deposited data

How the results depend on the processing

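The count of members called was 2 and that of all genes 145. DESeq2 gave 4 and 622, the replicate block 4 and 525, and edgeR with the replicate block, an alternative added after seeing the data, 4 and 555. In these 3 fits Rrm1 and Rrm2 passed besides Dut and Shmt1, against 1.92% of all genes called higher by DESeq2 and 1.41% with the block in limma. Leaving out 1 library gave 0 to 6 members and 6 to 427 genes. Leaving out both libraries numbered 3 gave 0 and 2, and with the replicate block 0 and 15. The other alternatives gave 2 or 3 members. The median log2 fold change of the members was 0.16 to 0.18 in every alternative. Libraries of the same number deviated from their tissue means with correlations of 0.44, 0.40 and 0.06. The crossed pairs of libraries 1 and 2 gave -0.44 and -0.38, while liver library 3 correlated best with bone marrow library 2 (0.15). Xist and Y-linked levels also matched by number across the tissues. The main test did not take the numbers as pairs, and whether they are pairs is uncertain. The block changed no other member's call.

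Of 645 values of single members under alternatives, 613 kept their direction and call. Fold changes near 0 changed sign with left-out libraries. With 1 library left out, Atic ran from -0.0071 (without liver library 3) to 0.15, Impdh1 from -0.18 to 0.046 (liver library 1), Shmt2 from -0.0071 (liver library 2; also -0.0056 without bone marrow library 1) to 0.054, and Mthfd1l from -0.087 (bone marrow library 2; also -0.035 without liver library 1) to 0.14. Without both libraries numbered 3 Atic was -0.032, with the block too. Among the ratios, the difference for Tk1/Dck ran from -0.11 to 0.11 (bone marrow library 3; also 0.098 without liver library 1 and 0.10 without both libraries 3), for Prps1/Prps2 from -0.24 (liver library 1) to 0.32, and for Impdh1/Impdh2 from -0.078 to 0.095 (liver library 1; also 0.017 without bone marrow library 2). The cause was not tested. With 3 libraries a tissue and shallower liver libraries, the smallest change among the 2 members called in the report was 1.39-fold.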

Other observations

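Among genes of nucleotide breakdown, the 2 surface enzymes that turn extracellular ATP into adenosine had opposite fold changes. Nt5e (CD73), which releases adenosine from AMP, had 72.7, 102 and 62.5 normalized counts in bone marrow and 152, 337 and 305 in liver, without overlap (log2 fold change 1.68 ± 0.33, limma adjusted p = 0.071). Entpd1 (CD39), the enzyme before it, had 68.2, 119 and 74.4 in bone marrow and 18.8, 41.2 and 40.9 in liver, also without overlap (-1.39 ± 0.38, limma adjusted p = 0.15). The mitochondrial thymidine kinase gene Tk2 had 437, 489.8 and 410.4 in bone marrow and 356, 296 and 336 in liver (-0.44 ± 0.12, limma adjusted p = 0.14), the opposite sign to Tk1. None of the 3 passed by limma or edgeR, and they were chosen after their values were seen. DESeq2 called 1 gene of nucleotide breakdown higher and 1 lower, and 0 of the salvage list that holds Tk2. With the replicate block in limma the adjusted p was 0.017 for Nt5e, 0.048 for Entpd1 and 0.12 for Tk2.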
